A study of Bos taurus with 13 samples.

Results

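The ubiquitin-like protein *ISG15* and the enzymes that attach it to other proteins or remove it again were followed across 13 blood RNA libraries. The members were chosen by gene name, as *ISG15*, *UBA7*, *UBE2L6*, *HERC5*, *HERC6* and *USP18*, and 5 of these 6 names have an entry among the 16095 named genes of the counts. *USP18*, which removes *ISG15* from its targets, has no entry under its symbol or its RefSeq synonym and was not analysed here. The cows were lactating, clinically healthy dairy cows, labelled Italian Red Pied, and were ranked by the cortisol concentration of their milk. The high group holds 7 cows of the upper end (replicates 1 to 7) and the low group 6 cows of the lower end (replicates 8 to 13). No treatment is named in the labels, and each library is numbered as a cow of its own. Whole blood was collected in PAXgene tubes, which fix RNA at sampling, and globin RNA was not removed.

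Interferons induce *ISG15*, which is made of a pair of ubiquitin-like domains and can be linked to lysines of other proteins, a modification called ISGylation. The activating enzyme *UBA7* charges *ISG15*, the conjugating enzyme *UBE2L6* takes it over, and a HECT-type ligase, mainly *HERC5* in human and *HERC6* in mouse, passes it to newly made proteins. The genes of all these enzymes are themselves interferon-induced, and free *ISG15* can also leave the cell and act on lymphocytes through the integrin formed by *ITGAL* and *ITGB2*.

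On the UMD3.1 build, *ISG15* lies on the minus strand of chromosome 16 from 52714627 to 52715665, with 2 exons that sum to 602 bases. *UBA7* lies on the plus strand of chromosome 22 from 50991902 to 51000966, and *UBE2L6* on the minus strand of chromosome 15 from 82124876 to 82138170. *HERC5* (37683713 to 37728536) and *HERC6* (37736138 to 37793279) are neighbours on the minus strand of chromosome 6, with 7601 bases between them. No exon of the 5 genes overlapped an exon of the unnamed entry, which pools genes without a name. *HERC5* and *HERC6* are related in sequence, so the sharing of reads between them is uncertain.

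The libraries held 11045599 to 28124575 counts on named genes (median 17381198). Levels are given as CPM, the counts scaled to a common library size with TMM factors. A count of 0 would have allowed up to 3 counts, which is 0.107 to 0.272 CPM in these libraries and covers counting error only. The 5 genes had between 636 and 26186 counts in every cow, so depth did not limit their detection. All marker genes of neutrophils, monocytes, T cells, B cells, cytotoxic and NK cells, eosinophils, platelets and erythroid cells that have an entry were detected. In such mixed samples, fewer cells of a type and less RNA per cell cannot be told apart.

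*ISG15* had the widest range of the 5 genes. In the high group, *ISG15* ran from 40.6 CPM (replicate 4) over a median of 88.7 CPM to 1015 CPM (replicate 5). In the low group it ran from 97.5 CPM (replicate 9) over a median of 340 CPM to 1003 CPM (replicate 8). The other 6 high cows had 206 CPM or less, while 4 of 6 low cows had 307 CPM or more, and the groups overlapped. From the lowest to the highest cow the range was 25.0-fold.

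*UBA7*, the activating enzyme, ran from 73.2 CPM (replicate 4) over a median of 160 CPM to 375 CPM (replicate 5) in the high group. In the low group its values went from 118 CPM (replicate 11) over a median of 234 CPM to 669 CPM (replicate 8). Replicates 4, 5 and 8 were again the extreme cows, and the range over all cows was 9.15-fold.

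*UBE2L6*, the conjugating enzyme, was the least variable of the 5 genes, with a 3.72-fold range. It had 49.9 CPM (replicate 7), a median of 98.5 CPM and 181 CPM (replicate 5) as its lowest, middle and highest values in the high group. The low group ran from 97.1 CPM (replicate 9) over a median of 131 CPM to 186 CPM (replicate 10). Replicate 8, the highest low cow for the other 4 genes, had 150 CPM, less than replicates 10 and 13.

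The ligase gene *HERC5* ran from 60.4 CPM (replicate 7) over a median of 99.3 CPM to 153 CPM (replicate 5) in the high group. In the low group it ran from 67.8 CPM (replicate 13) over a median of 140 CPM to 365 CPM (replicate 8). *HERC6* ran from 89.1 CPM (replicate 7) over a median of 128 CPM to 303 CPM (replicate 5) in the high group. Its low cows lay between 111 CPM (replicate 11) and 551 CPM (replicate 8), with a median of 202 CPM. Both ligase genes had a range of about the same size, 6.04-fold for *HERC5* and 6.18-fold for *HERC6*.

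**Figure D1:**
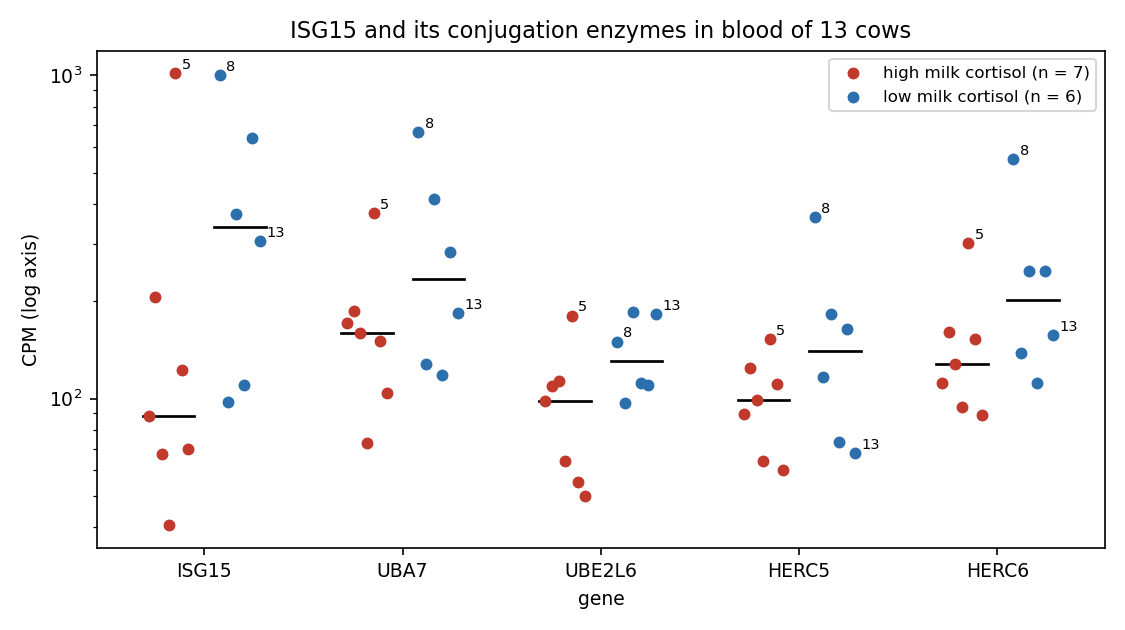
CPM of *ISG15* and 4 enzyme genes on a log axis, 1 point per cow, with high milk cortisol in red (n = 7), low in blue (n = 6) and bars at group medians. Replicate 5 of the high group and replicate 8 of the low group stand at 1015 and 1003 CPM of *ISG15*, and the groups overlap for every gene.

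Levels were compared between genes as CPM per kilobase of exon. *ISG15* was first of the 5 genes in all 13 cows, with a median of 204 CPM per kilobase, and *HERC5* was last in all 13 cows, with a median of 37.8. The order by median level between them was *UBE2L6* (108), *UBA7* (53.9) and *HERC6* (45.2 CPM per kilobase). *ISG15* exceeded *UBE2L6* by 1.02-fold in replicate 3 of the high group and by 11.4-fold in the cow with the largest ratio, so their gap depended on the cow. On the log2 scale their mean difference in level was 1.58 ± 1.18 (SD, n = 13). *UBE2L6* lay above *UBA7* in 12 of 13 cows, by 0.78 ± 0.62 (SD, n = 13) on the log2 scale. *UBA7* lay above *HERC6* in 11 of 13 cows, with a difference of 0.30 ± 0.29 (SD, n = 13) that hardly exceeded its spread. The ratio of *HERC6* to *HERC5* per kilobase was above 1 in every cow, between 1.04 and 2.02. It was 2.02 in replicate 13 of the low group and 1.73 in replicate 5 of the high group. The other 11 cows lay between 1.04 and 1.32.

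The spread between cows was set beside that of all genes. The standard deviation of log2 CPM over the 13 cows was 1.54 for *ISG15*, higher than in 99.7% of the 11033 genes that passed the filter on low counts. It was 0.89 for *UBA7*, 0.75 for *HERC6*, 0.73 for *HERC5* and 0.63 for *UBE2L6*, which exceeded 97.0%, 94.0%, 93.4% and 88.8% of genes. The median over all genes was 0.31. Without replicate 8 of the low group the value fell to 0.55 for *HERC5* and to 0.57 for *HERC6*.

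Relatives of these enzymes that serve ubiquitin varied less. *UBA1*, the main ubiquitin-activating enzyme, had a standard deviation of log2 CPM of 0.26 and ran from 313 to 558 CPM, a 1.78-fold range. *UBE2L3*, the closest relative of *UBE2L6*, had 0.18 and a 1.54-fold range. *HERC3*, a relative of the ligase genes, had 0.24 and a 1.72-fold range, and *HERC1* and *HERC2* had 1.77-fold and 1.41-fold ranges. Of the 11 relatives and ubiquitin genes in the list, 10 had a range of 3.39-fold or less, *UBB*, *FAU*, *UBA6* and *HERC4* among them. The exception was *RPS27A*, a fusion of ubiquitin with a ribosomal protein, with a 13.5-fold range and 729 CPM in replicate 4 of the high group. The other 10 had a smaller standard deviation than *UBE2L6*. For 21 interferon-induced genes outside the pathway the standard deviation ran from 0.28 (*PARP9*) to 1.64 (*OAS2*, named as the end of this range), with a median of 0.76.

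**Figure D2:**
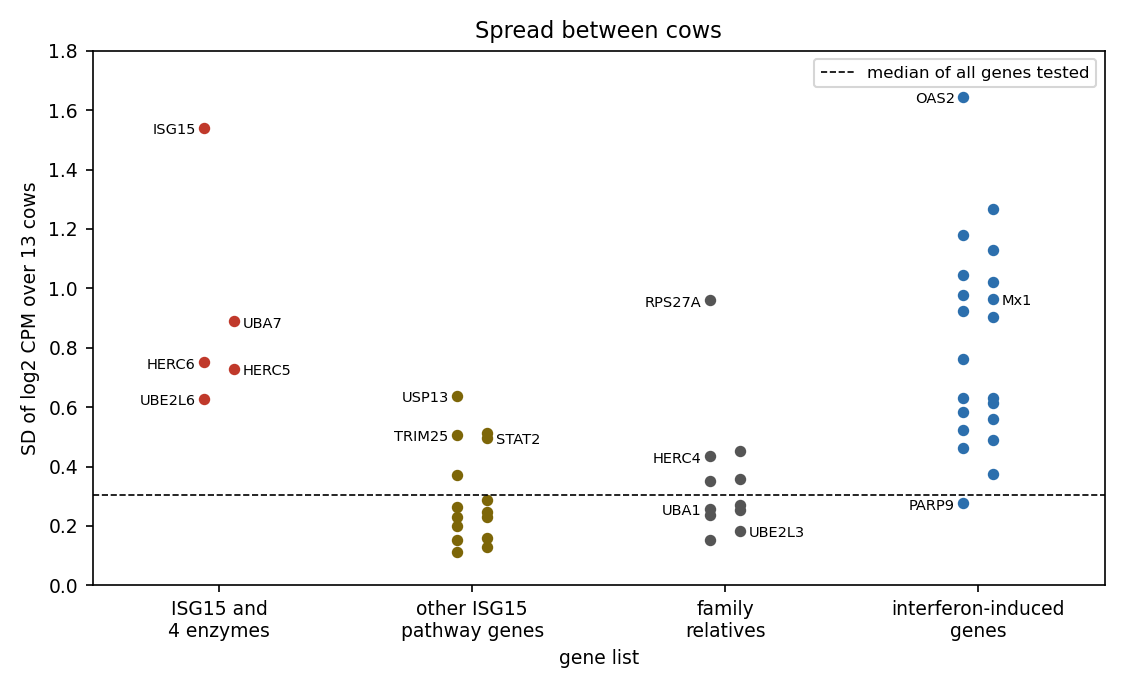
Standard deviation of log2 CPM over 13 cows (y axis), 1 point per gene, for *ISG15* and 4 enzymes, other pathway genes, family relatives and interferon-induced genes, with the median of all genes tested dashed at 0.31. *ISG15* stands at 1.54, and its enzymes at 0.63 to 0.89 lie above *UBA1* (0.26) and *UBE2L3* (0.18).

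The members varied together across cows. For the 10 pairs, Pearson's r of log2 CPM ran from 0.503 to 0.953 (median 0.838) and Spearman's rho from 0.495 to 0.929 over 13 cows. By permutation tests with 100000 resamples, two-sided and adjusted over the 10 pairs, 9 pairs passed 0.05 with both measures. The share of all gene pairs that would pass was not computed. Over the 11028 other genes tested, the median r with a member lay between -0.0209 (*HERC5*) and 0.0229 (*ISG15*). The pair with the highest r was *UBA7* and *HERC6* (r = 0.953, permutation p = 1e-05, the smallest that these resamples can give; rho = 0.929, permutation p = 3.00e-05). *ISG15* followed *HERC6* (r = 0.924, rho = 0.923) and *UBA7* (r = 0.909, rho = 0.857) more tightly than *HERC5* (r = 0.774, rho = 0.764) and *UBE2L6* (r = 0.716, rho = 0.632), although the difference between these correlations was not tested. The adjusted permutation p of the 4 pairs with *ISG15* lay between 5.00e-05 and 0.00824 for r and between 2.50e-04 and 0.0267 for rho. The neighbours *HERC5* and *HERC6* had r = 0.935 and rho = 0.890.

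The pair outside the threshold was *UBE2L6* and *HERC5*, with r = 0.503 (permutation p = 0.0793) and rho = 0.495 (permutation p = 0.0889). Replicate 13 of the low group had the lowest *HERC5* value of its group (67.8 CPM) together with the second highest *UBE2L6* value (182 CPM). Without that cow r was 0.692 (permutation p = 0.0117, adjusted p = 0.0117). With each single cow left out in turn, r ran from 0.391 to 0.692 (permutation p up to 0.211). The removal of replicate 13 gave the highest r, so its p is no separate test of the pair. Within groups, r of this pair was 0.760 in the 7 high cows and 0.137 in the 6 low cows.

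The other 9 pairs kept a positive r within each group, between 0.722 and 0.954 among the high cows and between 0.365 and 0.966 among the low cows. In the low group the 4 pairs with *UBE2L6* had r between 0.137 and 0.538, and the 6 pairs without it had r between 0.740 and 0.966. Leaving out the 2 cows farthest from the median of the first gene gave r between 0.454 and 0.923 for the 10 pairs. For *ISG15* these were replicates 5 and 8, and without them r was 0.909 with *HERC6*, 0.856 with *UBA7*, 0.666 with *HERC5* and 0.638 with *UBE2L6*. With group means removed, r of *UBE2L6* and *HERC6* fell from 0.647 to 0.554 (adjusted permutation p = 0.0562), which ended its call. No sequencing batch is given in the labels, so none could be set beside these values.

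The enzymes covered a narrower range than *ISG15*. The least-squares slope of log2 CPM on that of *ISG15* was 0.52 (standard error 0.07) for *UBA7*, 0.45 (standard error 0.06) for *HERC6*, 0.37 (standard error 0.09) for *HERC5* and 0.29 (standard error 0.09) for *UBE2L6*. A slope of 1 would mean that an enzyme doubled whenever *ISG15* did. Without replicate 8 of the low group the slope was 0.27 for *HERC5* and 0.37 for *HERC6*.

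**Figure D3:**
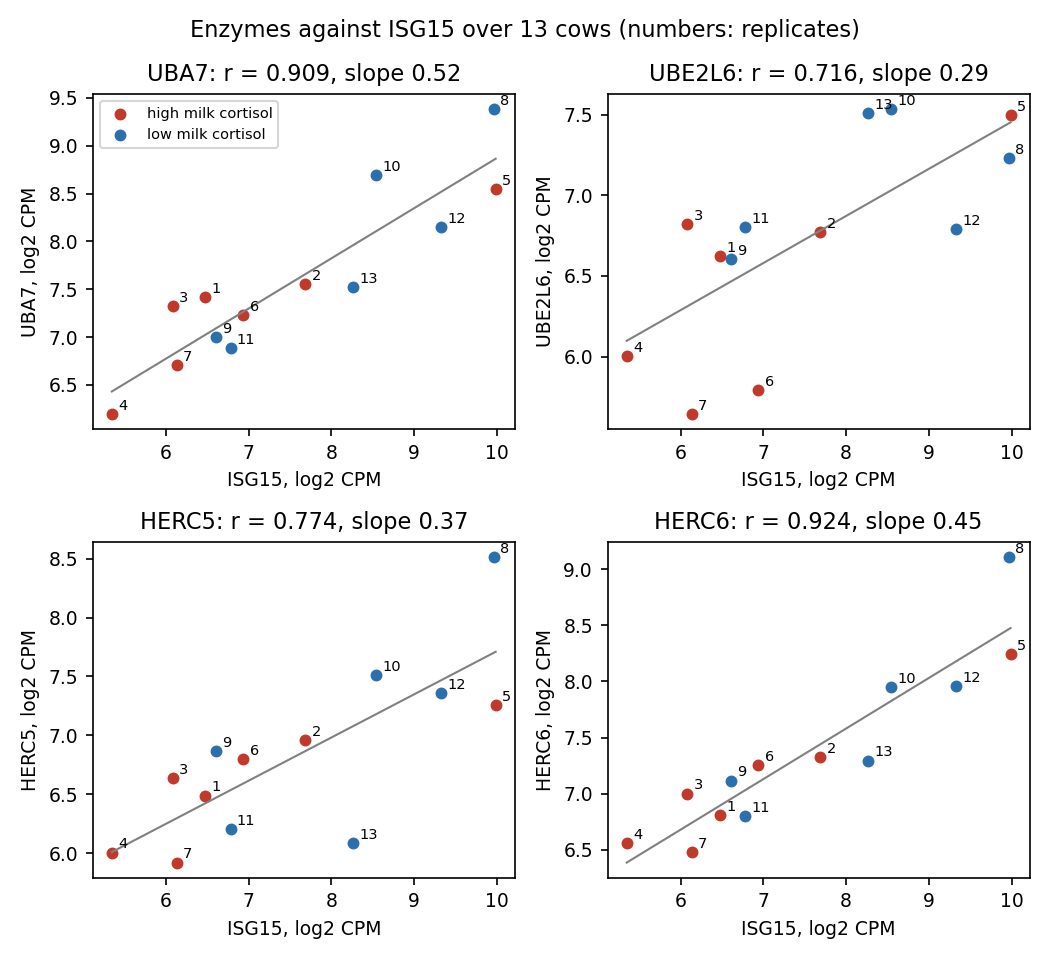
Log2 CPM of each enzyme gene (y axis) against log2 CPM of *ISG15* (x axis), 1 point per cow with its replicate number, high milk cortisol in red and low in blue, and the least-squares line in grey. *UBA7* (r = 0.909) and *HERC6* (r = 0.924) lie close to their lines, while replicate 13 lies below the line of *HERC5* and above that of *UBE2L6*.

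The 5 genes were also set against the mean centred log2 CPM of the 21 interferon-induced genes outside the pathway. Over 13 cows, r was 0.967 for *ISG15*, 0.964 for *HERC6*, 0.914 for *UBA7*, 0.840 for *HERC5* and 0.685 for *UBE2L6*. Spearman's rho was 0.973, 0.940, 0.857, 0.791 and 0.648 in the same order, and permutation p adjusted over the 20 relations computed ran from 1.00e-04 to 0.0432 for r and from 2.00e-04 to 0.0783 for rho. *UBE2L6* passed 0.05 with r (0.0432) and not with rho (0.0783). Without the 2 cows farthest from the median score, r lay between 0.621 (*UBE2L6*) and 0.947 (*ISG15*). Within groups r was between 0.730 and 0.958 in the high group, and in the low group between 0.865 and 0.975 for 4 genes and 0.378 for *UBE2L6*. The other 15 relations, with the neutrophil minus T cell marker score, the log2 haemoglobin share of counts and log2 library size, did not pass an adjusted permutation p of 0.05 (smallest 0.155 for r and 0.175 for rho). The haemoglobin share here and in later fits sums 4 haemoglobin genes, because *HBA* and *HBA1* have no entry, so it is not the whole globin RNA. Before adjustment the smallest p of r was that of *UBE2L6* with the haemoglobin share (r = -0.559, permutation p = 0.0464; rho = -0.522, permutation p = 0.0701). The smallest p of rho was that of *UBA7* with the same share (rho = -0.544, permutation p = 0.0580, and r = -0.344, permutation p = 0.250). Without the 2 cows farthest from the median share, r with it was -0.653 for *ISG15*, -0.494 for *UBA7* and -0.717 for *UBE2L6*. It was -0.227 for *HERC5* and -0.412 for *HERC6*. For the neutrophil minus T cell score such values ran from -0.0466 (*UBE2L6*) to 0.594 (*HERC5*). Within groups, r with that score lay between -0.243 and 0.139 in the high group and between -0.301 and 0.838 in the low group.

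Genes whose pattern over the 13 cows was most like each member were ranked by Pearson's r of log2 CPM among the 11028 other genes tested, a description without a test. For *ISG15* they were *PARP10* (r = 0.974), *XAF1* (0.973), *DHX58* (0.964), *PML* (0.960) and *IRF7* (0.960). *DHX58* encodes a relative of the RNA sensor RIG-I, and *IRF7* a transcription factor of interferon genes. For *UBA7* they were *IRF9* (r = 0.959), *ISG20* (0.959), *PARP10* (0.953), *ZNFX1* (0.944) and *XAF1* (0.939), where *IRF9* is the DNA-binding part of the complex that switches on interferon-induced genes. For *HERC6* they were *ZNFX1* (r = 0.986), *EIF2AK2* (0.980), *ADAR* (0.972), *PARP12* (0.971) and *CMTR1* (0.966), several of which encode proteins that act on RNA. The genes most like *HERC5* were *IFIH1* (r = 0.938), *PARP9* (0.922), *EIF2AK2* (0.920), *IFIT1* (0.918) and *IFIT3* (0.912), all in the list of interferon-induced genes.

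*UBE2L6* had other companions. They were *PELO* (r = 0.916), a ribosome rescue factor, *BCL3* (0.899), a member of the IkappaB family, *PRR13* (0.893), *PLIN2* (0.869), a lipid droplet protein, and *GRK5* (0.861), a receptor kinase. Among the 50 genes most like *UBE2L6*, 0 of the 21 interferon-induced genes were found, against 14 for *HERC6*, 12 for *HERC5*, 11 for *ISG15* and 6 for *UBA7*. Those 21 are a small part of the 11028 genes ranked, so 0 among 50 is also what an unrelated gene would mostly give. The ranking was not repeated with a cow left out. Among all genes, *HERC6* ranked 3 and *ISG15* ranked 28 for *UBA7*, whereas the member nearest to *UBE2L6* was *UBA7* at rank 324.

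Genes that flank the members on their chromosomes did not all share their pattern. Among 10 pairs of a member and a flanking gene, in which *HERC5* and *HERC6* flank each other, *UBA7* and *FAM212A*, which lies 173 bases away on the other strand, had r = 0.896 and rho = 0.918 (permutation p = 3.00e-05 and 9.00e-05, adjusted over the 10 pairs 1.00e-04 and 3.33e-04). *FAM212A* had 8.04 to 38.2 CPM, and the counting used no strand, so reads of these neighbours cannot be told apart where their transcripts meet. *ISG15* and *AGRN*, 2288 bases away, had r = 0.827 and rho = 0.720 (adjusted permutation p = 0.00132 and 0.0160), and *AGRN* had between 1.63 and 12.9 CPM. *ISG15* and *HES4*, 9068 bases away, had r = 0.727 and rho = 0.780 (adjusted permutation p = 0.0107 and 0.00562), with 1.79 to 17.0 CPM of *HES4*. Without replicates 5 and 8 these values of r were 0.624 for *AGRN* and 0.540 for *HES4*, and for *FAM212A* r was 0.863 without replicates 8 and 10. On the far side of *HERC5*, *PYURF* had r = -0.531 (rho = -0.522), and on the far side of *HERC6*, *PPM1K* had r = -0.529 (rho = -0.637). The neighbours of *UBE2L6*, *SMTNL1* (0 to 22 counts, below the filter) and *SERPING1*, had r = 0.312 (rho = 0.401) and r = 0.202 (rho = 0.209), and *TRAIP* beside *UBA7* had r = 0.508 (rho = 0.632). Without replicates 6 and 7, the farthest from the median of *UBE2L6*, r was 0.624 for *SERPING1* and -0.00611 for *SMTNL1*, so neither value was stable. The adjusted permutation p of these 5 pairs lay between 0.0942 and 0.504 for r and between 0.0336 and 0.492 for rho, with *PPM1K* and *TRAIP* at 0.0336.

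To ask whether milk cortisol goes with the *ISG15* system, edgeR's quasi-likelihood test was run between the groups on all 11033 genes. The 5 genes had negative log2 fold changes, that is lower values in the high group, and 0 of the 5 passed an adjusted p of 0.05. The share of all genes past that threshold was 0%. Negative fold changes made up 46.7% of all genes tested. At an unadjusted p below 0.05 there were 0 of 5, against 2.09% of all genes in either direction and 1.16% lower in the high group. *HERC5* and *UBE2L6* are among the genes that the study itself lists as differing at a q value of 0.05, on cows that include these, so that list is no independent evidence. With DESeq2, the tool of the study, they had an unadjusted p of 0.0355 and 0.0453 here. Their adjusted p in that fit was 0.9999, so neither gene was called here. The study selected more cows per group than these libraries hold, and it names ARS-UCD1.2 where the count headers name UMD3.1. This fit is therefore no repeat of the test of the study.

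The 7 high cows averaged 230 ± 350 CPM (SD) of *ISG15* and the 6 low cows 422 ± 347 CPM (SD). This gave a log2 fold change of -0.87 with a standard error of 0.74 (edgeR p 0.258 before and 0.999 after adjustment). The adjusted p was 0.999 for the 4 enzyme genes as well. *UBA7* averaged 174 ± 96.9 CPM (SD) among the high cows and 300 ± 212 CPM (SD) among the low cows, with a log2 fold change of -0.78 (SE 0.42, edgeR p 0.0829 before adjustment). For *UBE2L6* these means were 95.8 ± 45.6 CPM (SD) and 140 ± 38.7 CPM (SD), with -0.54 on the log2 scale (SE 0.27, edgeR p 0.0591 before adjustment). Unlike *UBE2L6*, both ligase genes had the larger SD among the low cows, where replicate 8 stood highest. *HERC5* averaged 100.3 ± 32.8 CPM (SD) against 162 ± 109.9 CPM (SD), a log2 fold change of -0.69 (SE 0.34, edgeR p 0.0572 before adjustment). *HERC6* averaged 149 ± 73.4 CPM (SD) against 242 ± 162 CPM (SD), a log2 fold change of -0.71 (SE 0.35, edgeR p 0.0605 before adjustment). In every one of these genes, 6 of 7 high cows had less than the low median, and the exception was replicate 5. The 5 genes vary together, so these are not separate results. The share of all genes with such a split was not computed.

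For mean log2 CPM a two-sided exact permutation test, which takes all 1716 ways to divide the cows, had p = 0.136 for *ISG15*, 0.199 for *UBA7*, 0.0793 for *UBE2L6*, 0.228 for *HERC5* and 0.151 for *HERC6*. On this scale the difference of *ISG15* was -1.30 and those of the enzymes ran from -0.66 to -0.51. The smallest p that this design allows is 5.83e-04. The log2 ratios of the enzymes to *ISG15* were higher in the high group by 0.64 to 0.79, with exact permutation p between 0.166 and 0.315. That of *HERC6* to *HERC5* differed by -0.10 (exact permutation p = 0.532).

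Single cows moved these values. Without replicate 5 of the high group, all 5 genes had an unadjusted p below 0.05 and the log2 fold change of *ISG15* was -2.09 (standard error 0.54, unadjusted p 0.00176, adjusted p 0.893 from edgeR's test). In that fit 3.31% of all genes had an unadjusted p below 0.05. Without replicate 8 of the low group it was -0.42 (unadjusted p 0.581), and it was -0.27 for *HERC5*, -0.28 for *HERC6*, -0.37 for *UBA7* and -0.52 for *UBE2L6*. With both cows left out, 3 of 5 genes had an unadjusted p below 0.05 (*ISG15* -1.61, *UBE2L6* -0.74 and *HERC6* -0.55), against 2.32% of all genes, again with 0 past the adjusted threshold.

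Marker scores of 8 blood cell types were compared between the groups, and none passed an adjusted p of 0.05 over the 8 scores. The erythroid markers (8 of 10 listed genes measured) summed to 382 to 7998 CPM in the high group and 141 to 578 CPM in the low group, and their mean centred log2 CPM was higher in the high group by 1.01 (exact permutation p = 0.0355, adjusted p = 0.268). The neutrophil markers (5 of 8 measured) summed to 4239 to 9559 CPM and 6891 to 10053 CPM, a score difference of -0.35 (exact permutation p = 0.0670, adjusted p = 0.268). The scores of the other 6 cell types had exact permutation p between 0.189 and 0.903. With the log2 haemoglobin share as a covariate the log2 fold change was -1.52 for *ISG15* (standard error 1.19) and -0.32 for *UBE2L6* (standard error 0.37). It was -0.72 for *UBA7*, -0.73 for *HERC6* and -0.58 for *HERC5*. With the neutrophil minus T cell score as a covariate it was -1.18 for *ISG15* and -0.39 for *HERC5*, and *UBE2L6* alone had an unadjusted p below 0.05 (-0.61, unadjusted p 0.0484, edgeR). The haemoglobin share was 0.0282% to 0.815% of counts in the high group and 0.0114% to 0.0552% in the low group. Group and share are thus partly confounded in the fit with that covariate. The part of blood composition in the group differences was not tested.

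The other genes of the pathway were described from a list of 16, of which 15 have an entry and all 15 passed the filter. By edgeR's test 0 passed the adjusted threshold, 11 of 15 were lower in the high group by sign and the median log2 fold change was -0.08, against 0.01 over all genes. Of all genes, 46.7% were lower in the high group and 2.09% had an unadjusted p below 0.05. The 2 genes of this list with an unadjusted p below 0.05 were *TRIM25*, which can act as a further ligase for *ISG15*, and *STAT2*. *STAT2* is part of the interferon signal and the partner through which *USP18* acts on the receptor. *TRIM25* averaged 50.5 ± 15.9 CPM (SD) among the 7 high cows and 73.0 ± 26.1 CPM (SD) among the 6 low cows, with a log2 fold change of -0.53 (edgeR p 0.0295 before adjustment). *STAT2* averaged 242 ± 66.4 CPM (SD) and 335 ± 116 CPM (SD), with -0.47 (edgeR p 0.0461 before adjustment). With either blood covariate in the fit, 0 of the 15 genes had an unadjusted p below 0.05 (edgeR, 0 past the adjusted threshold). The count was also 0 without any one of replicates 1, 3, 4, 7, 8 or 10, and 3 without replicate 5 or 13. Over all genes it was 363 of 10964 without replicate 5 and 197 of 11114 without replicate 13. It ran from 191 of 10957 to 271 of 10964 without any one of replicates 1, 3, 4, 7, 8 or 10. With the covariates it was 120 (haemoglobin share) and 299 (neutrophil minus T cell score) of 11033. Both *TRIM25* and *STAT2* stand in the list of the study, which was drawn from cows that include these.

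*IRF9* had a log2 fold change of -0.35. The receptor genes *IFNAR1* and *IFNAR2* had 0.03 and -0.18, and the receptor kinases *JAK1* and *TYK2* had -0.02 and -0.07. *ARIH1*, another ligase reported for *ISG15*, had 0.03. The proteases *USP5*, *USP14*, *USP21* and *USP13*, which are known to react with *ISG15*, had -0.15, -0.03, 0.02 and 0.37. *ITGAL* and *ITGB2*, which form the receptor for free *ISG15*, had -0.09 and -0.08, at 380 to 553 CPM and 787 to 1263 CPM. Their standard deviations of log2 CPM were 0.16 and 0.20, against 1.54 for *ISG15* itself.

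Among the 11 family relatives, 5 had negative and 6 positive log2 fold changes (median 0.05), and 0 had an unadjusted p below 0.05. *UBA1* had -0.20, *UBE2L3* -0.13 and *HERC3* 0.10. All 21 interferon-induced genes outside the pathway had negative fold changes (median -0.62), 4 of them with an unadjusted p below 0.05 (*IFI44*, *Mx1*, *OAS1X* and *IFIH1*, named after their values were seen) and 0 past the adjusted threshold of edgeR's test. Over all genes, 46.7% had negative fold changes and 2.09% an unadjusted p below 0.05. Without replicate 8 of the low group the median of the 21 genes was -0.29, with 20 of 21 negative. There 1 of them had an unadjusted p below 0.05 (all genes: 197 of 11088). Without replicate 5 of the high group that count was 18 (median -0.89, all genes: 363 of 10964). It was 1 with the haemoglobin covariate (all genes: 120 of 11033) and 0 with the neutrophil minus T cell covariate (all genes: 299 of 11033), with 0 past edgeR's adjusted threshold. Without any other single cow it was between 1 and 9 of the 21 genes. Over all genes such counts ran from 191 of 10957 without replicate 7 to 373 of 10979 without replicate 2. The 3 most abundant of the 21 interferon-induced genes, *IFIT3*, *Mx1* and *IFIT1*, had log2 fold changes of -0.48, -1.11 and -0.69. The median of the 5 members was -0.71.

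**Figure D4:**
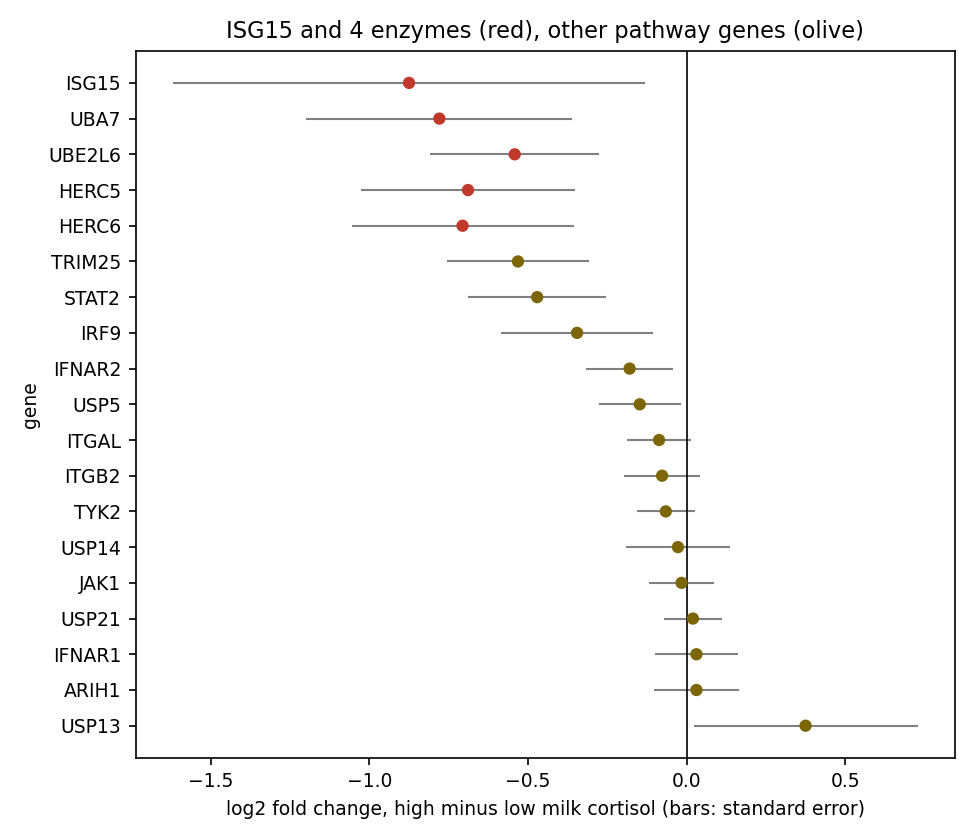
Log2 fold change of high against low milk cortisol (x axis) with its standard error, for *ISG15* and 4 enzymes in red and other pathway genes in olive. The red points lie between -0.87 and -0.54, the olive points between -0.53 (*TRIM25*) and 0.37 (*USP13*), and no gene passed an adjusted p of 0.05.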

How the data were processed

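Reads per gene name were analysed as the authors deposited them, as raw counts in 1 table per cow. Per the file headers, featureCounts 1.4.6-p3 summed exons of Ensembl release 88 models of UMD3.1 by gene name with no strand option, whereas the labels name STAR 2.7.3, Subread 1.6.5 and ARS-UCD1.2. The headers also carry animal numbers other than those in the table names, and a folder named for goat, so groups rest on the labels alone. The unnamed entry (13.9% to 16.7% of counts per cow) was left out. No 2 libraries were identical.

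Log2 CPM used TMM factors and a prior count of 2. Groups were compared without covariates in edgeR 4.0.16 (R 4.3.3, robust quasi-likelihood) on genes kept by filterByExpr with a count of 10 and a total of 15 as minima, with Benjamini-Hochberg adjustment, and tested on simulated data. The standard error is the log2 fold change over the square root of F. The study used DESeq2, here an alternative (1.42.0) beside limma-voom (3.58.1), other scalings, filters and covariates, and each cow left out. Leaving out replicates 5 and 8 together was added after seeing the data. Members, gene lists and tests were chosen with earlier results of these data known. Genes named are the members, the pathway and family lists, the 5 genes most like each member by r, the nearest named gene on each side, and the 3 most abundant interferon-induced genes. Of the list genes, 1 of 16 pathway, 1 of 12 family and 5 of 26 interferon-induced names have no entry. Some listed genes were counted with their lists, and their values are not reported here.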

Additional observations from a re-analysis of the deposited data

Results flagged for a closer look

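Within each group, the highest and the lowest cow of each gene were compared with the nearest other cow by Dixon's criterion, and 4 of 10 sets of CPM values (5 genes in 2 groups) had a cow beyond its 95% limit. Chance gives about 1 in 20 such sets for normally distributed values, and CPM is skewed. In the high group, replicate 5 had 1015 CPM of *ISG15*, against 206 CPM in the next cow (replicate 2). The same cow had 375 CPM of *UBA7* against 187 CPM, and 303 CPM of *HERC6* against 160 CPM, in replicate 2. In the low group, replicate 8 had 551 CPM of *HERC6*, against 249 CPM in replicate 12. The genes vary together, so these are not separate events, and their cause was not tested.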

How the results depend on the processing

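No paired analysis was possible because the labels number the cows 1 to 13 without a shared number between groups. All 5 log2 fold changes were negative under every alternative of edgeR, DESeq2 and limma-voom run, and 0 members passed the adjusted threshold in any of them (smallest adjusted p 0.893). Members with an unadjusted p below 0.05 numbered 2 with DESeq2 (all genes: 348 of 14346) and 1 with limma-voom (218 of 11033). They numbered 1 with the neutrophil minus T cell covariate (299 of 11033) and 3 without both replicates 5 and 8 (256 of 11028), instead of 0 (231 of 11033). With 1 cow left out members numbered between 0 and 5. There were 5 without replicate 5 (all genes: 363 of 10964) and 4 without 9 (345 of 11116). There were 3 without 11 (240 of 11075) and 2 without 13 (197 of 11114). DESeq2 called 1 gene (*CYP4X1*, named after its values were seen), and genes with an unadjusted p below 0.05 numbered 348 with DESeq2, 414 without the filter and 120 with the haemoglobin covariate, against 231, and 191 to 373 with 1 cow left out (373 without replicate 2 and 363 without replicate 5).

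The exact test of *ISG15* gave a difference of -1.46 (p = 0.0433) without both replicates 5 and 8. With 1 cow left out, differences ran from -1.81 to -0.96 for *ISG15*, -0.80 to -0.49 for *UBE2L6* and -0.80 to -0.33 for *HERC6*, with exact p below 0.05 only without replicate 5 (0.0216, 0.0281 and 0.0433), and from -0.87 to -0.37 for *UBA7* and -0.71 to -0.23 for *HERC5*, with none below 0.05. Ratios to *ISG15* ran from 0.47 to 0.94 for *UBA7*, 0.59 to 1.18 for *HERC5* and 0.51 to 1.01 for *HERC6*, with exact p of 0.0216, 0.0260 and 0.0195 without replicate 5, and from 0.36 to 1.00 for *UBE2L6* (smallest exact p 0.132). The r of *UBE2L6* and *HERC6* was 0.554 with group means removed and 0.578 to 0.710 with 1 cow left out (adjusted permutation p = 0.0546 without replicate 7), and that of *UBE2L6* and *HERC5* was 0.391 to 0.692 (0.692 without replicate 13). The causes were not tested. Other scalings, prior counts and the removal of haemoglobin genes changed no call of the members.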
